A study of Mus musculus with 8 samples.

Results

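The miR-30 family was measured in the culture medium of mouse muscle cells that carried mutant or wild-type human SOD1. The 8 family members were chosen by name from the 1881 mouse microRNAs (miRNAs) on the array: the guide arms mmu-miR-30a-5p, mmu-miR-30b-5p, mmu-miR-30c-5p, mmu-miR-30d-5p and mmu-miR-30e-5p, and the opposite arms mmu-miR-30a-3p, mmu-miR-30e-3p and mmu-miR-30c-2-3p. The prefix mmu, for mouse, is left out from here on. Of the 8 members, 5 were detected on all 8 arrays. These were miR-30a-5p, miR-30c-5p, miR-30d-5p, miR-30e-5p and miR-30c-2-3p. The other arms and seed relatives on the array, miR-30b-3p, miR-30d-3p, miR-30c-1-3p, miR-30f and miR-384-5p, were described beside the members.

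Primary myocytes were prepared from the leg muscle of newborn mice aged 1 to 3 days, labelled male, and grown in transwell plates, where cells in a bottom chamber and cells on an insert share medium across a porous membrane. Medium was collected at 2 days in vitro, and secreted miRNAs were read on 1-colour Agilent arrays. All mice overexpressed a human SOD1 transgene on a B6SJL background. The transgene was either the G93A mutant, used as a model of amyotrophic lateral sclerosis (ALS), or the wild-type human protein, abbreviated WT. In the group G93A/G93A (n = 3) both chambers held hSOD1(G93A) cells, and in the group G93A/WT (n = 3) hSOD1(G93A) cells lay in the bottom chamber under hSOD1(WT) cells on the insert. In the group WT/WT (n = 2) both chambers held hSOD1(WT) cells, so the WT/WT cultures also overexpressed human SOD1, and no culture without the transgene was analysed here. The reverse mixed combination and medium that had held no cells were not analysed here. The labels give each sample as a biological replicate and do not tie samples to litters or culture days.

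MicroRNAs of the miR-30 family are abundant in skeletal and cardiac muscle. A precursor hairpin yields a 5p and a 3p arm. One arm, the guide, is usually kept by an Argonaute protein, and the opposite (passenger) arm is mostly degraded. Bases 2 to 8 of the kept arm, the seed, pair with messenger RNAs and lower their output, so arms with the same seed share many targets. In mouse myoblasts the miR-30 guide arms have been described as promoting differentiation and as repressing Tnrc6a, a partner of Argonaute, and the guide arm miR-30a-5p is known to repress the autophagy gene BECN1 in human cells. Medium carries miRNAs in vesicles, in protein complexes and from dying cells, and these sources cannot be told apart here. Fewer releasing cells and less miRNA per cell cannot be told apart either.

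The mature sequences show which members share a seed and how close their probes' targets are. They are given from RefSeq on GRCm38.p6, 5′ to 3′, with the seed in capitals.
miR-30a-5p: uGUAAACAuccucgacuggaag
miR-30c-5p: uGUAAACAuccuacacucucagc
miR-30e-5p: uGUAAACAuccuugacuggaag
miR-30a-3p: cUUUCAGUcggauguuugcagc
miR-30e-3p: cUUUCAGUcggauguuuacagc
miR-30c-2-3p: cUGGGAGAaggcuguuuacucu
miR-30c-1-3p: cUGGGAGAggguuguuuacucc
The guide arms miR-30a-5p, miR-30c-5p and miR-30e-5p and the relative miR-384-5p hold the guide seed GUAAACA, and miR-30b-5p and miR-30d-5p are known as guide arms of the same seed family. The opposite arms shown fall under 2 other seeds. miR-30a-3p and miR-30e-3p share UUUCAGU, and miR-30c-1-3p and miR-30c-2-3p share UGGGAGA. Counted from 1 at the 5′ end, miR-30a-5p and miR-30e-5p differ by the single substitution C13U, and miR-30a-3p and miR-30e-3p by G18A. miR-30c-2-3p and miR-30c-1-3p differ by A9G, C12U and U22C. Whether probes for such close sequences also bind the other one was not tested. The cultures were fed foetal bovine serum and, for differentiation, horse serum, and serum miRNAs identical in sequence to a mouse miRNA would be read by the same probes.

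The family comes from 3 gene pairs. On GRCm38.p6, Mir30a (chr1:23272269-23272339) and Mir30c-2 (chr1:23291701-23291784) lie 19361 bases apart, and Mir30b (chr15:68337415-68337510) and Mir30d (chr15:68341208-68341289) lie 3697 bases apart. Mir30c-1 (chr4:120769534-120769622) and Mir30e (chr4:120772606-120772697) lie 2983 bases apart within the span of the protein-coding gene Nfyc, a subunit of the CCAAT-binding factor NF-Y. The 2 miR-30c hairpins are shown because they give the same guide arm but different opposite arms, both of which were measured. Capitals mark the 5p and the 3p arm. Mir30c-1 lies on the minus strand and Mir30c-2 on the plus strand.
Mir30c-1: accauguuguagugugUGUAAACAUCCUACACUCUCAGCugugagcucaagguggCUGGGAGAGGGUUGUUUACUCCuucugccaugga
Mir30c-2: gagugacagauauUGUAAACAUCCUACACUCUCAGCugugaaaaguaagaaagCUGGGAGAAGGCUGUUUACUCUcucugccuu
Signal at the miR-30c-5p probes can therefore come from either hairpin, whereas the 3p arms differ in sequence between the hairpins. Whether the 3p probes keep them apart was not tested.

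The 8 arrays detected 450 to 563 mouse miRNAs each, and their summed signals ran from 115122 to 202908. The array G93A/WT 2 was the brightest and had the most detected miRNAs. All G93A/WT arrays lay above the others, with 497 to 563 detected miRNAs against 450 to 483. Their summed signals were 143713 to 202908 against 115122 to 139644. All arrays came from 1 slide with 2 rows. The G93A/G93A arrays shared row 2 with WT/WT 2, and the G93A/WT arrays shared row 1 with WT/WT 1, so no row held both G93A/G93A and G93A/WT. Signals were scaled to a common 75th percentile over the 423 miRNAs detected on all 8 arrays. Scale factors were 0.59 to 0.93 for the G93A/WT arrays and 0.97 to 1.44 for the others. Values below are log2 of the scaled signal unless stated otherwise. The 538 miRNAs detected on at least 2 arrays were tested with limma. A miRNA was called where its Benjamini-Hochberg adjusted p over those 538 was under 0.05, and intervals are 95% confidence intervals. Called miRNAs numbered 46 for G93A/G93A against WT/WT (20 higher, 26 lower), 21 for G93A/WT against WT/WT (17 higher, 4 lower) and 57 for G93A/G93A against G93A/WT (29 higher, 28 lower). With scaling to the median instead, the splits were 5 higher and 28 lower, 16 and 11, and 28 and 27. With the deposited processed values they were 25 and 23, 2 and 3, and 35 and 10.

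Of the muscle miRNAs, miR-206-3p, miR-133b-3p, miR-133a-3p and miR-1a-3p (4 of the 7 listed) were detected on all 8 arrays, miR-499-5p on 1, and miR-1b-3p and miR-208b-3p on none. The summed scaled signal of the muscle list was 4094 to 5063 in G93A/G93A, 4341 to 5258 in G93A/WT and 4522 to 5194 in WT/WT medium, and no member of it was called in any comparison. The epithelial list (the miR-200 family, miR-203-3p and miR-205-5p) moved with the groups. Its sum was 0 to 5.36 in G93A/G93A, 61.2 to 85.0 in G93A/WT and 138 to 166 in WT/WT medium, with miR-200a-3p and miR-141-3p detected on no array, and its 5 detected members fell in G93A/G93A against each of the other groups. The fibroblast list (4 of 5 on all arrays, miR-145a-5p on none) summed to 343 to 430, 415 to 553 and 475 to 517 in the same order of groups, and its member miR-199a-5p fell in G93A/G93A against WT/WT (-0.85, limma adjusted p = 0.0291). The erythroid list (1 of 2 detected on all arrays, miR-144-3p on none) summed to 799.9 to 1242 in G93A/G93A, 1122 to 1291 in G93A/WT and 843 to 918 in WT/WT medium. The endothelial list (1 of 2, miR-126a-5p on none) summed to 93.1 to 101, 87.4 to 113 and 109 to 119 in the same order of groups. The leukocyte list held 1 detected miRNA of 4, miR-223-3p, whose sum was 131 to 159 in G93A/G93A, 133 to 146 in G93A/WT and 99.3 to 107 in WT/WT medium. It rose in G93A/G93A against WT/WT (0.52, limma adjusted p = 0.0433), and miR-142a-3p, miR-142a-5p and miR-150-5p were detected on no array. The 3 neuronal miRNAs were detected on no array. The part of these other cell types in the values of the miR-30 family was not tested.

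**Figure D1:**
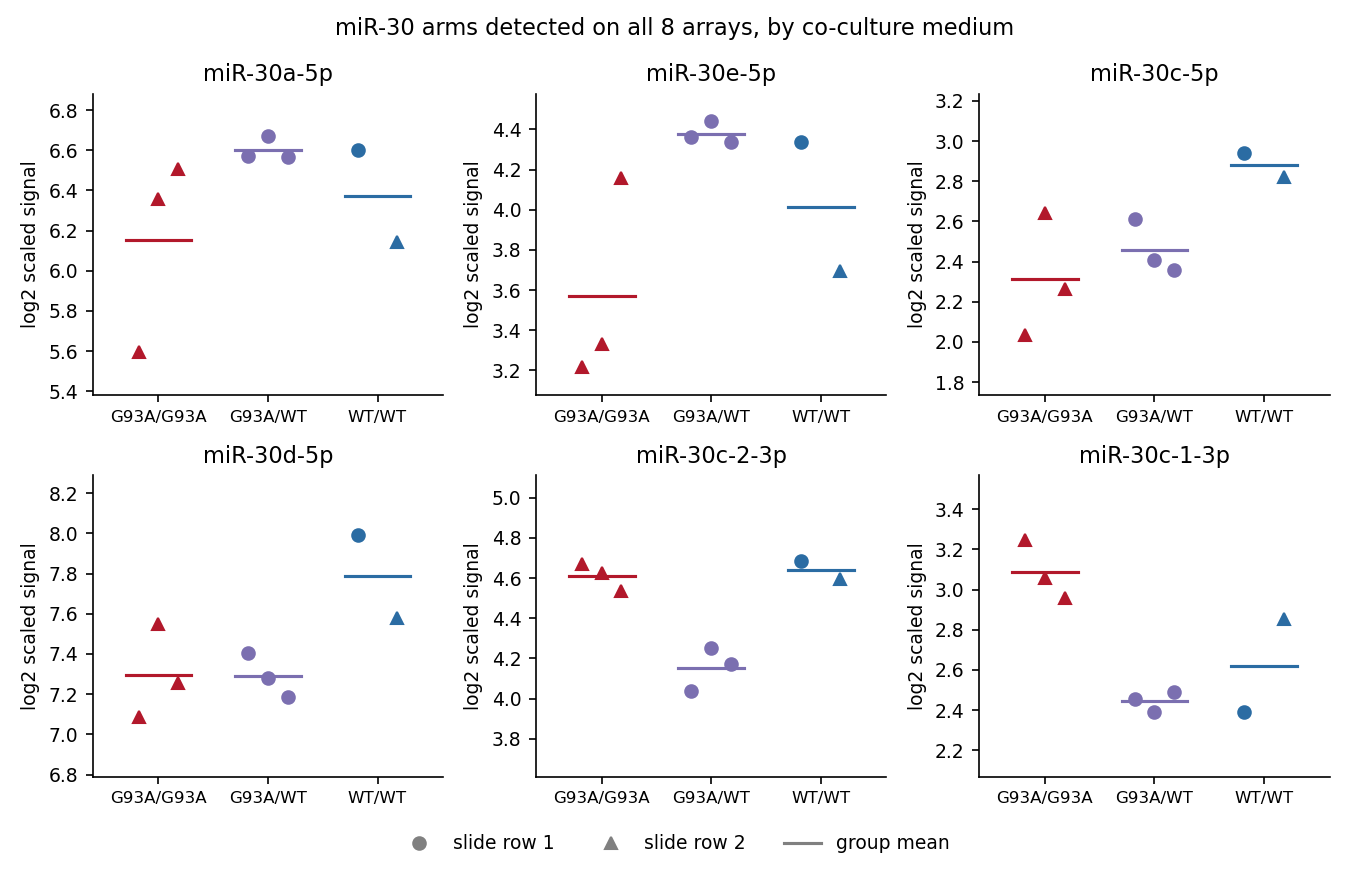
Log2 scaled signal (vertical axis) of the 5 members detected on all 8 arrays and of miR-30c-1-3p in medium of G93A/G93A, G93A/WT and WT/WT co-cultures. Each point is 1 array, circles lie in slide row 1 and triangles in slide row 2, and lines are group means. The 3 G93A/WT values of miR-30c-2-3p, 4.04 to 4.25, lie below all values of the other groups.

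Guide arms were read in all 3 groups. miR-30d-5p, which human endometrium is known to secrete, had log2 signals of 7.08, 7.55 and 7.25 in G93A/G93A, 7.41, 7.28 and 7.19 in G93A/WT, and 7.99 and 7.58 in WT/WT medium. All 6 arrays with mutant cells lay below both WT/WT arrays, and the gap between G93A/G93A 2 and WT/WT 2 was the narrowest. The means were 7.30 ± 0.24 (SD, n = 3), 7.29 ± 0.11 (SD, n = 3) and 7.79 ± 0.30 (SD, n = 2). miR-30c-5p, a repressor of connective tissue growth factor in cultured rat heart cells, gave 2.03, 2.64 and 2.26 in G93A/G93A, 2.61, 2.41 and 2.36 in G93A/WT, and 2.94 and 2.82 in WT/WT medium. Again both groups with mutant cells lay below WT/WT without overlap, while they overlapped each other. Its signal was 3.60 to 6.62 times the array's own error, the lowest such range among the 5 members detected on all arrays, so miR-30c-5p was measured less precisely. Before scaling, linear signals of miR-30d-5p were 117 to 157 in G93A/G93A, 182 to 262 in G93A/WT, and 177 and 169 in WT/WT medium. Those of miR-30c-5p were 3.54 to 4.93, 6.56 to 8.94, and 5.34 and 6.26. Unscaled, G93A/WT thus lay above WT/WT for both arms, so its place below WT/WT rests on the scaling.

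miR-30a-5p showed another order. It gave log2 signals of 5.60, 6.36 and 6.51 in G93A/G93A, 6.57, 6.67 and 6.57 in G93A/WT, and 6.60 and 6.14 in WT/WT medium. The G93A/WT arrays lay close together and above all G93A/G93A arrays, G93A/G93A 1 was low, and the WT/WT arrays fell on both sides. miR-30e-5p, the guide arm closest to it in sequence, gave 3.22, 3.33 and 4.16 in G93A/G93A, 4.36, 4.44 and 4.34 in G93A/WT, and 4.34 and 3.69 in WT/WT medium. G93A/G93A 1 and 2 were the lowest of the 8 arrays for miR-30e-5p, and G93A/G93A 3 lay between the WT/WT arrays. It had the widest range over the 8 arrays among the 5 members, 1.23 on the log2 scale, and miR-30a-5p had the next at 1.07. miR-30b-5p was detected on 1 array only, G93A/WT 2, at log2 1.58 with a signal 4.46 times its error. That array is the brightest of the 8, and the miR-30b-5p value there was above the floor of 0.60 given to undetected miRNAs. It was not tested.

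Among the opposite arms, miR-30a-3p and miR-30e-3p were detected on no array. miR-30c-2-3p, the 3p arm of the hairpin next to Mir30a, gave 4.67, 4.63 and 4.54 in G93A/G93A, 4.04, 4.25 and 4.17 in G93A/WT, and 4.69 and 4.60 in WT/WT medium. The G93A/WT arrays were the lowest 3 of the 8, and the G93A/G93A and WT/WT arrays overlapped. Before scaling, its linear signals were 18.8 to 23.9 in G93A/G93A, 17.6 to 32.1 in G93A/WT and 17.9 to 21.4 in WT/WT medium. All groups then overlapped, so the low place of miR-30c-2-3p in G93A/WT rests on bringing the arrays to a common scale. Against WT/WT it was also lower, though uncalled, with scaling to the median (-0.60) or on miRNAs numbered below 1000 (-0.53). The same held for quantile normalization (-0.44) and the deposited processed values (-0.68). On the scaled log2 values, the range of miR-30c-2-3p over the 8 arrays, 0.65, was the narrowest of the 5 members. The relative miR-30c-1-3p, the 3p arm of the hairpin within Nfyc, gave 3.25, 3.06 and 2.96 in G93A/G93A, 2.46, 2.39 and 2.49 in G93A/WT, and 2.39 and 2.85 in WT/WT medium. All G93A/G93A arrays lay above all other arrays for it, and WT/WT 1 and G93A/WT 2 were the lowest. The relatives miR-30b-3p, miR-30d-3p, miR-30f and miR-384-5p were detected on no array.

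The first comparison set medium of cultures with mutant cells in both chambers against medium of cultures with WT cells in both. No tested member of the family was called, and all 5 had lower means in G93A/G93A than in WT/WT medium. limma called 0 of 5 members, against 8.55% of all tested miRNAs (3.72% higher and 4.83% lower). An unadjusted p under 0.05 was found for 2 of 5 members and for 143 of all 538 miRNAs. miR-30c-5p had the largest difference of the members, -0.57 ± 0.19 (SE, limma adjusted p = 0.108, interval -1.01 to -0.13), or 1.48-fold lower. miR-30d-5p differed by -0.49 ± 0.18 (SE, limma adjusted p = 0.149, interval -0.93 to -0.05). miR-30e-5p differed by -0.45 (limma adjusted p = 0.403, interval -1.18 to 0.29) and miR-30a-5p by -0.22 (adjusted p = 0.695, interval -0.88 to 0.44), each within the spread between arrays. The value for the opposite arm miR-30c-2-3p was -0.032 (limma adjusted p = 0.923, interval -0.29 to 0.22). The median over the 5 members was -0.45 and over the 4 guide arms -0.47, beside -0.0061 over all 538 miRNAs. The groups did not overlap for miR-30c-5p and miR-30d-5p, 2 of the 5 members, both lower. Among all tested miRNAs 40.7% had groups that did not overlap, 22.7% lower and 18% higher. The direction hung on single arrays for 2 members. miR-30a-5p was at 0.0592 without G93A/G93A 1 and at 0.00985 without WT/WT 1, and miR-30c-2-3p was at 0.0130 without WT/WT 1 and at 0.0045 without G93A/G93A 3. Leaving out WT/WT 1, which gives the same values as the slide row block, also moved miR-30d-5p to -0.28, miR-30e-5p to -0.12 and miR-30c-1-3p to 0.24. miR-30c-1-3p had a higher mean in G93A/G93A medium, by 0.47 ± 0.16 (SE, limma adjusted p = 0.121, interval 0.09 to 0.85).

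The second comparison set the mixed cultures, with mutant cells under WT cells, against WT/WT and used the same WT/WT arrays as the first. Here the guide arms did not share a direction. miR-30d-5p (-0.49 ± 0.18, SE) and miR-30c-5p (-0.42 ± 0.19, SE) had lower means in G93A/WT medium, with limma adjusted p = 0.160 and 0.219 and intervals of -0.93 to -0.06 and -0.86 to 0.02. miR-30e-5p was at 0.36 (limma adjusted p = 0.473, interval -0.37 to 1.10) and miR-30a-5p at 0.23 (adjusted p = 0.628, interval -0.43 to 0.89). These values hung on the WT/WT arrays. Without WT/WT 2, as with slide row as a block, miR-30e-5p was at 0.041, miR-30a-5p at -0.00045 and miR-30d-5p at -0.70. Without WT/WT 1 they were at 0.69, 0.46 and -0.29. The opposite arm miR-30c-2-3p differed by -0.49 ± 0.11 (SE), 1.40-fold lower, with a limma adjusted p of 0.0530 and an interval of -0.75 to -0.23. It missed the threshold here and passed it without G93A/G93A 3, at 0.0406. The difference was then the same, its SE was 0.103, and the miRNAs called in this comparison went from 21 to 61. limma called 0 of 5 members against 3.9% of all tested miRNAs (3.16% higher and 0.743% lower). Here 2 of 5 members and 132 of all 538 miRNAs had an unadjusted p under 0.05. The groups did not overlap for 3 of the 5 members, miR-30c-5p, miR-30d-5p and miR-30c-2-3p, all lower in G93A/WT, beside 45.4% of all miRNAs (26% lower and 19.3% higher). Before scaling, miR-30c-5p and miR-30d-5p lay higher in G93A/WT than in WT/WT without overlap, and miR-30c-2-3p overlapped. The median over the members was -0.42 and over the 4 guide arms -0.096, beside 0.043 over all miRNAs. For miR-30c-1-3p the difference was -0.17 (limma adjusted p = 0.514, interval -0.55 to 0.21).

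The third comparison asked what differed when the insert held mutant rather than WT cells above the same mutant cells. It shares its G93A/G93A arrays with the first comparison and its G93A/WT arrays with the second. The opposite arm miR-30c-2-3p rose in G93A/G93A against G93A/WT medium by 0.46 ± 0.10 (SE, limma adjusted p = 0.0259, interval 0.23 to 0.69), or 1.37-fold. It was the single member called, 1 of 5, beside 10.6% of all tested miRNAs called (5.39% higher and 5.2% lower). Its non-member relative with the same seed, miR-30c-1-3p, also rose, by 0.64 ± 0.14 (SE, limma adjusted p = 0.0308, interval 0.30 to 0.98), or 1.56-fold. Before scaling, the signals of both 3p arms overlapped between these groups. The guide arm of the same hairpins, miR-30c-5p, was at -0.15 (limma adjusted p = 0.565, interval -0.54 to 0.25).

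The remaining guide arms were not called between G93A/G93A and G93A/WT. miR-30e-5p was at -0.81 ± 0.28 (SE, limma adjusted p = 0.104, interval -1.47 to -0.15), 1.75-fold lower, the largest difference of any member. It passed the threshold without G93A/G93A 3, at -1.11 with a limma adjusted p of 0.0161, and was at -0.17 with slide row as a block (adjusted p = 0.916). miR-30a-5p was at -0.45 (limma adjusted p = 0.251, interval -1.04 to 0.14; -0.17 without G93A/G93A 1) and miR-30d-5p at 0.0057 (adjusted p = 0.983, interval -0.38 to 0.40). The median of the 5 members was -0.15 and of the 4 guide arms -0.30, beside -0.095 over all miRNAs. miR-30c-2-3p was higher without overlap, as were 15.6% of all miRNAs, and miR-30a-5p and miR-30e-5p were lower without overlap, as were 19.1%, which makes 34.8% in either direction. Neither call of a 3p arm held with the slide row as a block, where miR-30c-2-3p was at 0.55 (limma adjusted p = 0.307) and miR-30c-1-3p at 0.18 (adjusted p = 0.771). These groups lie in different rows, which only the WT/WT arrays link. The call of miR-30c-2-3p was also lost without G93A/WT 3 (limma adjusted p = 0.0579), G93A/G93A 1 (0.0760) or G93A/G93A 2 (0.100), and that of miR-30c-1-3p without any 1 array of either group except G93A/G93A 3 (0.0617 to 0.126).

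**Figure D2:**
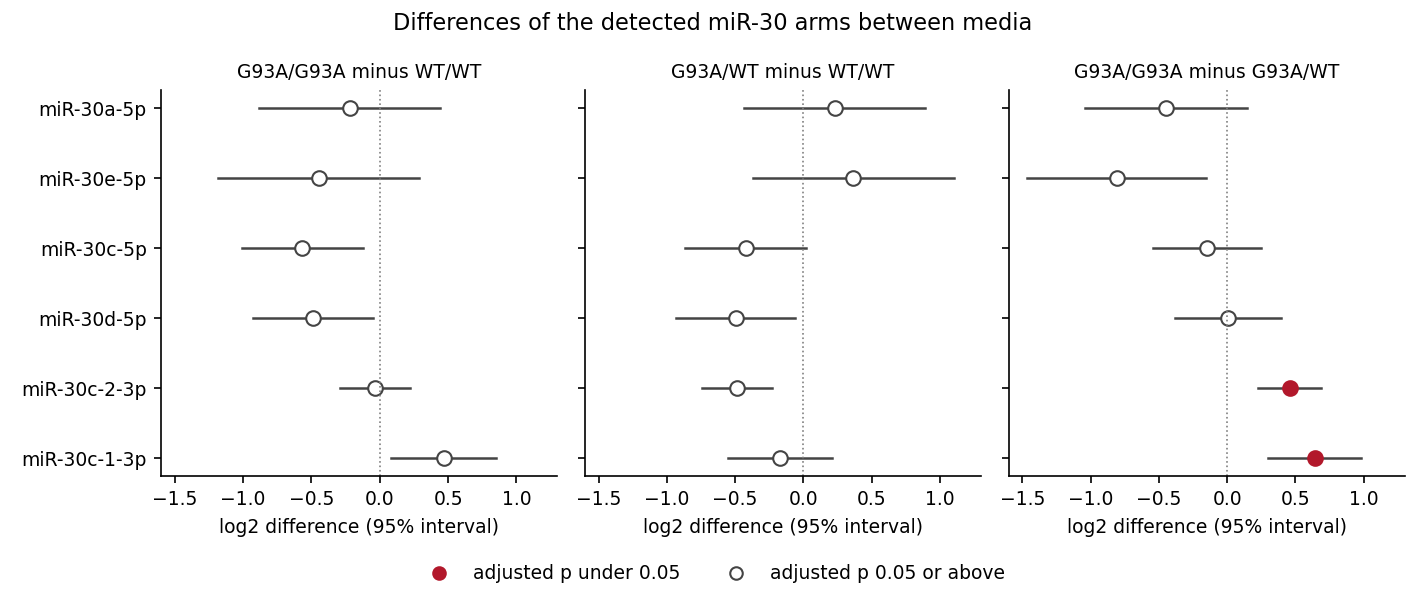
Log2 differences (horizontal axis) of the 5 tested members and miR-30c-1-3p in the 3 comparisons, with 95% intervals from limma. Filled red points have an adjusted p under 0.05 and are miR-30c-2-3p at 0.46 and miR-30c-1-3p at 0.64, both in G93A/G93A minus G93A/WT.

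The guide arm and the opposite arms of miR-30c were then set against each other within each array, as the log2 ratio of the 5p to the 3p signal. Since probes differ in brightness, such a ratio does not say which arm was more abundant, and a difference of the ratio between groups shows only that the arms changed unequally. The ratio was formed for 28 pairs of arms with both arms detected on all 8 arrays. It could not be formed for miR-30a and miR-30e, whose 3p arms were not detected. For miR-30c-5p over miR-30c-1-3p it was -1.21, -0.42 and -0.69 in G93A/G93A, 0.16, 0.01 and -0.13 in G93A/WT, and 0.55 and -0.03 in WT/WT medium. The G93A/G93A arrays lay below all others, and how many of the 28 pairs separated in this way was not counted. The ratio fell in G93A/G93A against WT/WT by 1.04 ± 0.26 on the log2 scale (SE, limma adjusted p over the 28 pairs = 0.0449, interval of the difference -1.63 to -0.44), a 2.05-fold lower ratio. It was 1 of 2 pairs called, 7.14% of the 28. The other was miR-324-5p over miR-324-3p, at -0.99 ± 0.18 (SE, limma adjusted p = 0.00868).

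Against G93A/WT the same ratio in G93A/G93A differed by -0.79 ± 0.24 on the log2 scale (SE, limma adjusted p = 0.0768, interval -1.32 to -0.26) and was not called. Between G93A/WT and WT/WT it was at -0.25 ± 0.26 (SE, limma adjusted p = 0.673, interval -0.84 to 0.35), where 0% of the pairs were called by limma and 6 of 28 had an unadjusted p under 0.05. The ratio of miR-30c-5p over miR-30c-2-3p was -2.63, -1.98 and -2.28 in G93A/G93A, -1.42, -1.85 and -1.81 in G93A/WT, and -1.75 and -1.77 in WT/WT medium. The G93A/G93A arrays lay lowest here too, by a smaller margin. This ratio shares its numerator, miR-30c-5p, with the first and is no independent repeat of it. Its difference was -0.54 ± 0.23 (SE, limma adjusted p = 0.162, interval -1.05 to -0.03) for G93A/G93A against WT/WT and -0.60 ± 0.20 (SE, limma adjusted p = 0.101, interval -1.06 to -0.15) for G93A/G93A against G93A/WT. For G93A/WT against WT/WT it was 0.068 ± 0.23 (SE, limma adjusted p = 0.829, interval -0.44 to 0.58). The pair called between G93A/G93A and G93A/WT, 3.57% of the 28, was let-7d-5p over let-7d-3p at -0.85 ± 0.20 (SE, limma adjusted p = 0.0498). The call for miR-30c-5p over miR-30c-1-3p was lost when any array other than WT/WT 2 or G93A/G93A 2 was left out, with limma adjusted p of 0.0608 to 0.247, and the difference was then -0.75 without WT/WT 1.

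**Figure D3:**
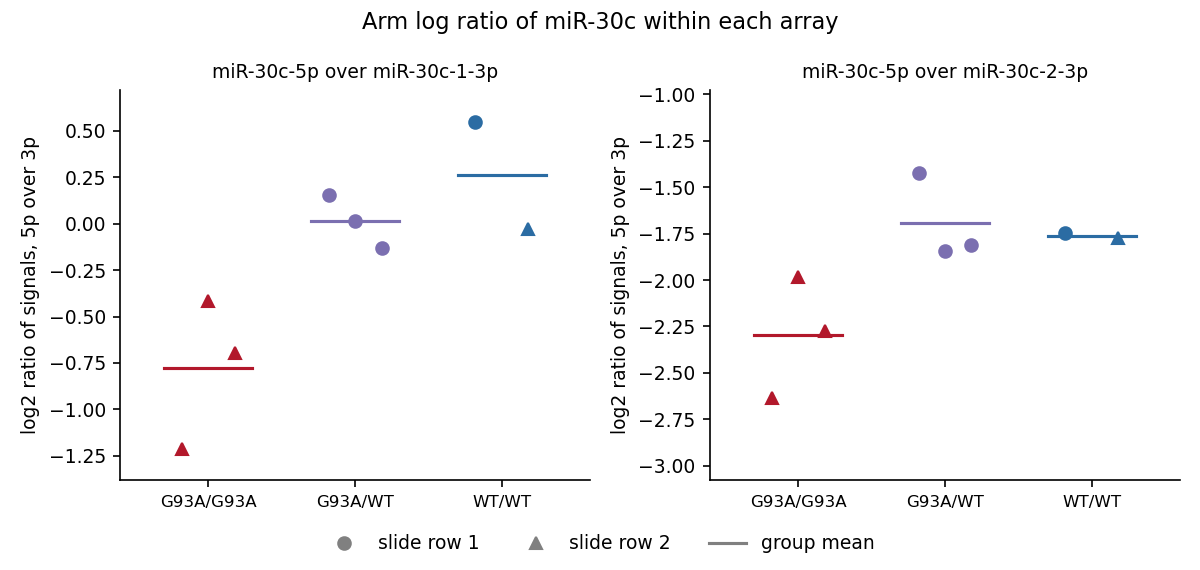
Log2 ratio of miR-30c-5p to each miR-30c 3p arm (vertical axis) on every array of the G93A/G93A, G93A/WT and WT/WT groups, with group means as lines and slide rows as circles (row 1) and triangles (row 2). The ratio to miR-30c-1-3p is -1.21 to -0.42 in G93A/G93A medium and -0.13 or above on all other arrays.

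Over the 8 arrays the guide arms formed pairs of like profiles. Each member was centred on its own mean, and likeness was the root mean square difference between 2 centred log2 profiles, given as a description of arrays that share scaling and slide. miR-30c-5p and miR-30d-5p were the most alike, at 0.108, although their genes lie on different chromosomes. miR-30a-5p and miR-30e-5p, which differ at 1 base, followed at 0.253. The guide arms taken across these pairs were farther apart, at 0.331 to 0.502, and miR-30e-5p and miR-30c-2-3p were the least alike of the members at 0.644. The median over all 89253 pairs of miRNAs detected on all arrays was 0.347.

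**Figure D4:**
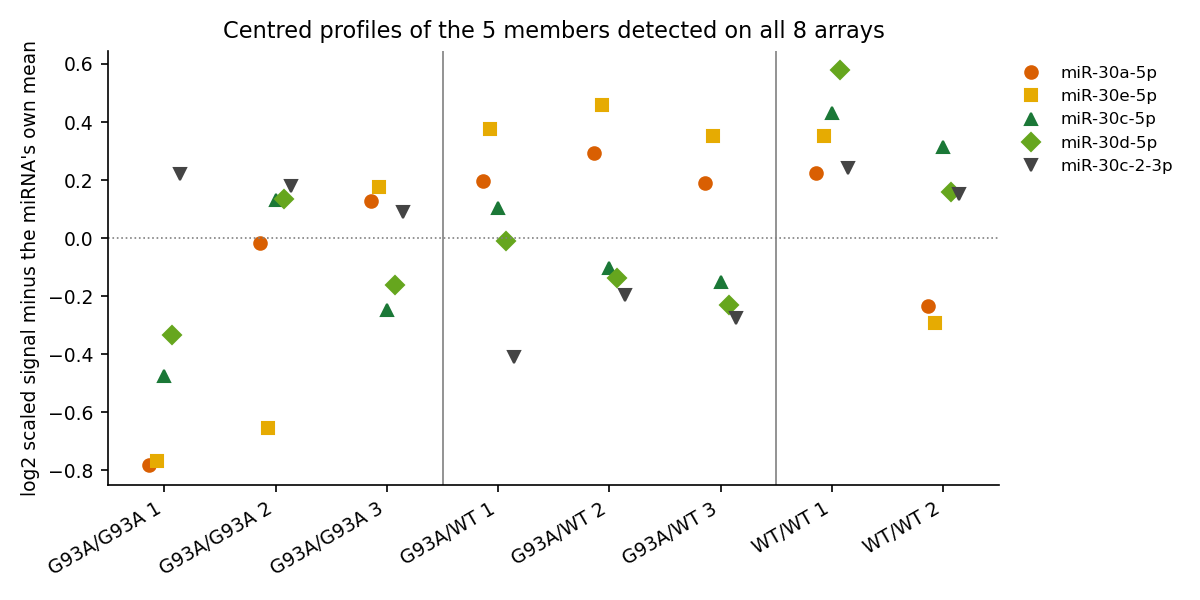
Log2 signal of each of the 5 detected members, centred on its own mean over the 8 arrays (vertical axis), by array in G93A/G93A, G93A/WT and WT/WT medium. miR-30c-5p and miR-30d-5p run close together (root mean square difference 0.108), and miR-30c-2-3p is at its lowest on the 3 G93A/WT arrays.

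The non-members most like the mean profile of the 4 guide arms detected on all arrays were miR-378d, miR-378b and miR-410-3p. Their root mean square differences were 0.0552, 0.0968 and 0.105. The median over the 418 non-members, miR-30c-1-3p among them, was 0.315. The 3 were picked for the smallest differences, so their place below the median follows from the choice. The mean profile also averages guide arms whose own profiles differed. miR-378d averaged 6.68 ± 0.30 in G93A/G93A, 7.02 ± 0.10 in G93A/WT and 7.11 ± 0.20 in WT/WT medium (SD, n = 3, 3 and 2). miR-378b averaged 7.25 ± 0.22, 7.50 ± 0.16 and 7.52 ± 0.37 in the same order of groups, and miR-410-3p 9.66 ± 0.32, 9.91 ± 0.09 and 10.05 ± 0.17. None of the 3 was called by limma in any comparison, with adjusted p of 0.201 to 0.964, and none had an unadjusted p under 0.05.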

How the data were processed

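Per the file headers, the deposited array files give a signal intensity per miRNA on a linear scale, its error and a detected flag. A deposited table of the authors' processed intensity values of the same arrays served as an alternative. The sources used here do not give its normalization or the version of the scanner software. Per the labels' protocols, 150 ng of miRNA from 600 µl of medium was labelled, so values are relative to total small RNA, and the labels do not name which medium, with 10% foetal bovine or 2% horse serum, was collected.

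Signals were scaled to a common 75th percentile over the 423 miRNAs detected on all 8 arrays, set to a floor of 1.52 (log2 0.60), which is the middle of the arrays' lowest scaled signals above detection, and taken to log2. The 538 miRNAs detected on at least 2 of 8 arrays were fitted with limma 3.58.1 in R 4.3.3 (3 groups sharing 1 spread, 5 residual and 1.96 prior degrees of freedom) and adjusted by Benjamini-Hochberg. Arm ratios of 28 pairs were fitted alike. Python 3.11.15 computed detection, profiles and sequences. The fit was run on simulated data with independent noise and known differences. These data held no slide row or scaling effects, so those limits were not tested. With 2 or 3 arrays in a group, their number limits the precision. The slide row and column were read from the position each array file gives. Named were all members and relatives, the 3 miRNAs nearest the mean guide profile (the rule named 5 guide arms, and miR-30b-5p had no profile) and at most 3 called pairs per comparison. Members and lists were chosen with earlier results of these data known. Alternatives were other scalings, the deposited values, detection filters, the floor, the spread estimate, 2 groups only, blocks for slide row and replicate number, and each array left out.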

Additional observations from a re-analysis of the deposited data

How the results depend on the processing

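Values for members, miR-30c-1-3p and arm ratios under the alternatives numbered 438. Of these, 379 kept their direction and side of the threshold, 25 lost and 9 gained a call, and 25 turned direction. Many could not turn, since the filters, floor, spread estimate, 2 groups only and leaving out an array of the group not compared left the difference unchanged. In the first and second comparisons the row block, the within-row fit and leaving out 1 WT/WT array gave the same value. The tally is therefore no measure of robustness. G93A/G93A against WT/WT: called miRNAs, 46, were 22 with scaling on miRNAs numbered below 1000, 29 for those detected on all 8 arrays, 17 with 2 groups only, 7 with slide row as a block, 9 within a row, and 7 to 57 with 1 array left out. G93A/WT against WT/WT: 21 became 12 (numbered below 1000), 5 (deposited values), 0 (all 8 arrays; deposited values and the other filters did call some), 37 (at least 1 array), 34 (floor doubled), 43 (2 groups) and 7 to 61 (1 array out). G93A/G93A against G93A/WT: 57 became 0 with the row block and 38 to 122 with 1 array out. Members called were 0 throughout in the first comparison, 1 in the second (miR-30c-2-3p) with detection on at least 1 array, with the floor doubled, and 0 to 1 with 1 array out, and in the third 0 with the row block and 0 to 2 with 1 array out.

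Pairs called on the arm ratio in the first comparison, 2, were 1 (quantile), 4 (arms detected on at least 2 arrays, 48 pairs), 0 (2 groups), 1 (row block) and 1 to 3 (1 array out). In the second, 0, they were 1 (quantile), 3 (deposited), 2 (at least 2 arrays), 1 (2 groups), 1 (row block) and 0 to 1. In the third, 1, they were 6 (deposited), 3 (at least 2 arrays), 3 (2 groups), 0 (row block) and 0 to 3. The call for miR-30c-5p over miR-30c-1-3p (-1.04) was also lost with quantile normalization (-0.97, limma adjusted p = 0.0584), more pairs (0.0764), 2 groups (0.133) and the row block (-0.75, 0.247), and held with deposited values (-0.95, 0.0323). With those, the third comparison also called this ratio (-0.85, 0.0129) and that over miR-30c-2-3p (-0.89, 0.00848). The rise of miR-30c-1-3p missed the threshold with scaling to the median (0.72, limma adjusted p = 0.0706) and deposited values (0.63, 0.0549), and that of miR-30c-2-3p held (0.66, 0.0174, deposited).

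Directions turned, all of them uncalled, in the first comparison for miR-30a-5p (0.00985, row block and within a row; -0.45 to 0.0592 with 1 array out) and miR-30c-2-3p (0.0695, numbered below 1000; 0.0342, quantile; 0.0130, row block and within a row; -0.0766 to 0.0130). In the second they turned for miR-30a-5p (-0.00045, row block and within a row; -0.00045 to 0.46), miR-30c-1-3p (0.0572, row block and within a row; -0.40 to 0.0572), the ratio over miR-30c-1-3p (-0.54 to 0.0410) and that over miR-30c-2-3p (-0.33, quantile; -0.0669 to 0.14). In the third they turned for miR-30a-5p (0.0103, row block), miR-30c-5p (0.22, quantile) and miR-30d-5p (-0.0229, quantile; -0.12 to 0.11). Scaling moved the median difference of all miRNAs in the third comparison between -0.095 and 0.046.

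Whether the replicate numbers pair the arrays is not given by the labels. Deviations of same-numbered arrays from their group means correlated at -0.17 and -0.22, 0.15 and 0.21, and -0.19, -0.20 and -0.35 in the 3 comparisons. With 2 or 3 arrays in a group, the deviations within it are tied to each other. The correlations therefore cannot decide whether the numbers pair the arrays. With the replicate block, called miRNAs were 10, 8 and 37, members called 0, 0 and 0, and pairs called 1, 0 and 0. Under it miR-30c-2-3p was at 0.46 (limma adjusted p = 0.0737), miR-30c-1-3p at 0.64 (0.0951) and the ratio over miR-30c-1-3p at -1.02 (0.271).

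Scaling on all mouse miRNAs was not run, because the 75th percentile fell at the undetected value 0.1 on 3 arrays. G93A/G93A and G93A/WT share no slide row, so no within-row value exists for them, and a row block compares each with 1 WT/WT array. The cause of the other changes was not tested. miR-30b-5p, miR-30c-5p and miR-30c-1-3p lay nearest to background. Before scaling, signals were 3.54 to 8.94 for miR-30c-5p and 3.65 to 8.86 for miR-30c-1-3p, so their ratio is one of dim signals.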
